A study of Mus musculus with 15 samples.

Results

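The piRNAs described here came from short interspersed elements (SINEs) of the mouse genome in families other than Alu, B2 and B4. Most belong to MIR, an ancient family, while the ID family among them is specific to rodents. They were taken from the repeat class and family written in the identifier of each counted interval. The rule uses no measured value, but these families were picked for description with earlier results of these data known. Of 8128951 intervals, 46253 met this rule. They comprised 41171 intervals of the MIR family, 4917 of the ID family, 126 of the 5S-Deu-L2 family, 31 of the tRNA family and 8 of the tRNA-RTE family. An interval, called a locus here, is 1 genomic start, end and strand with its own read count, so that reads which share a 5′ end but differ in length are different loci.

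Small RNA was isolated from the testes of male C57Bl/6 mice aged 8 weeks, with no transgene or mutation in any group. In the immunoprecipitation experiment, 3 input libraries, 3 Ψ-IP libraries pulled down with an antibody to pseudouridine (Ψ, an isomer of uridine) and 3 flow-through libraries of the unbound RNA were sequenced. In the chemical experiment, 3 mock-treated libraries were compared with 3 CMC-treated libraries, in which a carbodiimide that forms a stable adduct with Ψ blocks reverse transcription. The labels do not say whether replicates came from different animals, so the p-values below measure the spread between libraries, which may be technical. The 2 experiments used different library kits, and levels are therefore compared within each experiment only. Library totals ranged from 11575705 to 58399368 counts, and the loci described here held 0.902% to 1.23% of them.

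MIRs are tRNA-derived SINEs that spread in early mammals and have long been immobile, so their copies have diverged in sequence. ID elements are rodent SINEs derived from a BC1 RNA gene, and AmnSINE1 of the 5S-Deu-L2 family is an element shared across amniotes. In the adult testis most piRNAs are pachytene piRNAs, which are cut from long single-stranded precursors of piRNA clusters, usually begin with uridine, are bound by the PIWI proteins MILI and MIWI and are trimmed at the 3′ end. A copy of an old repeat that lies inside such a precursor is then represented among piRNAs in whichever orientation the precursor reads through it.

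Sequences are shown for 9 loci, so that the first base and the 3′ end can be read. Each is the most abundant locus of its genomic copy among copies in annotated noncoding exons of the same strand, written 5′ to 3′ as DNA with the first base in capitals. They were read from the GENCODE M21 transcripts of GRCm38, the assembly that mm10 names.

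MIRb in 1700001L05Rik, chr15:83356246-83356274, minus strand: Tttcacagatgaggaaactgaagcttagg
MIRb in D130017N08Rik, chr5:143758716-143758744, plus strand: Tatttaatctcacttggaacctgcaagtt
MIR in 1700029M20Rik, chr4:135629235-135629264, plus strand: Tgccctgagcatgttgatctctttgtgccc
MIR in 4933404O12Rik, chr5:136935519-136935547, plus strand: Tacaactgagggagatagatgtagagagc
MIR3 in Gm21388, chr3:34877156-34877184, plus strand: Ttttcacaaaggaggaaatgggacccaga
MIRc in Gm10619, chr7:73783467-73783495, minus strand: Tgctagtaggtgatctgggcacactcatt
MIR in Gm30132, chr8:93423131-93423159, minus strand: Taggagttagactgctaggatgggcgggc
MIRb in Gm10619, chr7:73783130-73783159, minus strand: Ttcctgcattgcctgaaacacagtagaagc
ID2 in Gm49794, chr17:27363484-27363508, plus strand: Tacagcttggttgtagagcacttgt

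All 9 begin with T in DNA, uridine in the RNA. A sequence was found for 1270 of the 6301 loci that were tested in either experiment, from 44 genomic copies, and 83.1% of these loci, holding 93.3% of their counts, began with T. Adenine at position 10, the mark of ping-pong amplification when it exceeds its background, was found in 26.7% of them. The 2 copies in Gm10619 gave MIRc and MIRb piRNAs from the same strand of 1 transcript. The most abundant copies of chromosomes 5 and 6 lie outside the transcripts used, and no sequence is printed for them.

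MIR accounted for 97.9% of the counts, ID for 1.91% and 5S-Deu-L2 for 0.147%. Among repeat names, MIRc held 38.2% of all counts, MIRb 30.98%, MIR3 17.96% and the name MIR 10.7%. The family MIR stood at 12066, 11389 and 11947 CPM (counts scaled to a common library total) in input. It stood at 9447, 8854 and 9867 CPM in Ψ-IP and at 10877, 11249 and 11565 CPM in flow-through. All 3 Ψ-IP libraries lay below the other 6 libraries of that experiment. In the chemical experiment MIR stood at 10579, 10138 and 9684 CPM after mock treatment and at 11619, 11761 and 10840 CPM after CMC, and the groups did not overlap. These levels exceeded those of the Alu, B2 and B4 families in the same libraries, since Alu stood at 4071 ± 63.3, B2 at 3825 ± 43.8 and B4 at 6021 ± 189 CPM in input (SD, n = 3).

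ID stood at 259, 242 and 251 CPM in input, at 153, 152 and 142 CPM in Ψ-IP and at 245, 237 and 246 CPM in flow-through, with Ψ-IP again below all other libraries of the experiment. AmnSINE1 showed another order. It stood at 11.5, 13.6 and 16.9 CPM in input, at 10.6, 14.3 and 12.3 CPM in Ψ-IP and at 106, 89.4 and 70.5 CPM in flow-through. Every flow-through library exceeded every input and every Ψ-IP library. AmnSINE1 did not exceed 0.477 CPM in any library of the chemical experiment. The tRNA family (LFSINE) and the tRNA-RTE family (MamSINE1) had 45 and 16 counts over all 15 libraries. Their most abundant loci had 6 and 4 counts in all, and no locus of either family had enough counts to be tested.

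**Figure D1:**
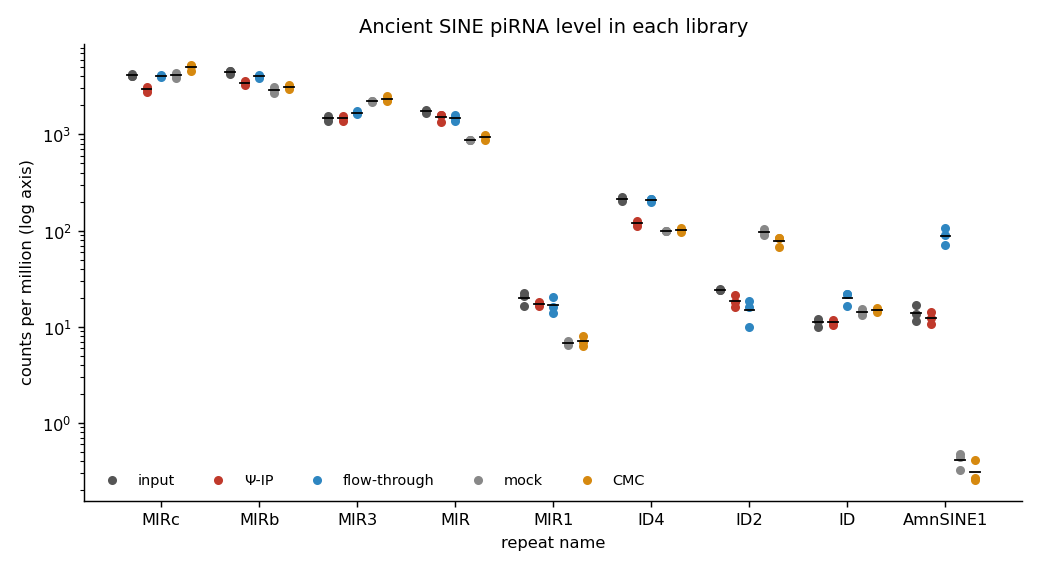
Level of each repeat name in every library, in CPM on a log axis, with points for the 3 libraries of each group and a short line at their mean. The Ψ-IP points of MIRc, MIRb and ID4 lie below those of input, and within the immunoprecipitation experiment AmnSINE1 is highest in flow-through (mean 88.5 CPM).

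The first comparison, Ψ-IP against input, asks which piRNAs the antibody enriches. Counts were summed per family and per repeat name and tested with edgeR, with an adjusted p-value under 0.01 as the threshold. MIR fell by 0.31 ± 0.05 on the log2 scale (SE, adjusted p = 0.000255) and ID by 0.73 ± 0.08 (adjusted p = 2.64e-05), while 5S-Deu-L2 differed by -0.14 ± 0.19 (adjusted p = 0.512). Among all 29 repeat families tested, 41.4% changed in either direction. The other SINE families did not pass, with log2 fold changes of -0.09 for Alu, -0.12 for B2 and -0.07 for B4. Of the repeat names, ID4 fell by 0.83, MIRc by 0.46 and MIRb by 0.35, and these passed the threshold. MIR3 and the name MIR did not pass, with log2 fold changes of 0.01 and -0.17. MIR1 (-0.19), ID2 (-0.37, adjusted p = 0.0249) and the name ID (0.02) did not pass either, so that among the ID names ID4 alone passed. Of all repeat names tested, 25.3% passed in either direction.

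The fall of MIRc rested largely on 1 copy. MIRc stood at 4246, 4040 and 4069 CPM in input and at 2964, 2762 and 3119 CPM in Ψ-IP, and without its most abundant genomic copy its log2 fold change was -0.08 (adjusted p = 0.209). ID4, at 223, 205 and 217 CPM in input and 126, 119 and 113 CPM in Ψ-IP, had a log2 fold change of -0.46 without its most abundant copy (adjusted p = 7.90e-07). The MIR family without its most abundant copy had a log2 fold change of -0.17 (adjusted p = 0.00148).

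The ratio of MIR counts to those of Alu, B2 and B4 does not depend on the library total. The log2 ratio of MIR to Alu was 1.55, 1.51 and 1.54 in input and 1.28, 1.28 and 1.40 in Ψ-IP, so that the groups did not overlap. The mean differences were -0.21 for Alu, -0.19 for B2 and -0.24 for B4. Without the 3 most abundant loci they were -0.11, -0.080 and -0.14. With all loci, each reached the smallest p that an exact two-sided permutation test of 3 against 3 libraries can give, 0.1 (0.15 adjusted over 9 ratios), so none could pass a threshold of 0.05.

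At the level of single loci, 4629 of the 46253 loci had more than 20 counts over the 9 libraries of the experiment, and these held 94.3% of the counts. In Ψ-IP, 196 of them (4.23%) were higher than in input and 747 (16.1%) were lower. Over all 686863 loci tested, 5.45% were higher and 10.7% lower. Their median log2 fold change was -0.41, beside -0.10 over all loci. By family, 194 of 4362 MIR loci were higher and 698 lower, 2 of 239 ID loci were higher and 48 lower, and of 28 loci of 5S-Deu-L2 1 was lower. That AmnSINE1 call was lost in 7 of 11 alternatives, among them DESeq2 and leaving out any 1 of the 3 input libraries. Among the other SINE families the lower share was 8.42% for Alu, 8.93% for B2 and 10.1% for B4. Without input replicate 1 the counts were 82 higher and 464 lower, and without input replicate 3 also 82 were higher.

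Since neighbouring loci can lie in 1 repeat copy, loci were also summed into genomic copies, defined as loci of 1 repeat name and strand no more than 300 nt apart. There were 662 copies, 347 on the plus and 315 on the minus strand. Just 6 copies held 50% of all counts and the 10 most abundant held 61.9%. By position, 75.3% of the counts lay outside annotated genes, 15.6% in exons and 7.80% in introns of a gene on the same strand, and 1.33% only opposite a gene. Of the 275 copies tested, 21 (7.64%) were higher in Ψ-IP than in input and 41 (14.9%) were lower, against 6.96% and 6.86% of all copies. The median log2 fold change was -0.14, beside -0.01 over all copies. Without input replicate 1, 13 were higher.

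The most abundant copy was a MIRc on the plus strand of chromosome 6, chr6:127800622-127800794, outside annotated genes, which alone held 24.9% of the counts and 65.2% of those of MIRc. It stood at 2378, 2280 and 2174 CPM in input, at 1268, 1089 and 1418 CPM in Ψ-IP and at 2323, 2403 and 2408 CPM in flow-through. The Ψ-IP libraries lay below all others, with a log2 fold change of -0.78 ± 0.07 against input (adjusted p = 6.55e-09). Its locus chr6:127800755-127800783, among the 3 most abundant of MIR, did not pass against input (-0.24 ± 0.19, adjusted p = 0.379). Against flow-through that locus was lower in Ψ-IP (-1.13 ± 0.23, adjusted p = 1.77e-05). A MIRb copy a few kilobases away on the same strand, chr6:127796966-127797108, stood at 904, 726 and 992 CPM in input, at 539, 424 and 513 CPM in Ψ-IP and at 465, 508 and 543 CPM in flow-through. Its Ψ-IP level was also below input (-0.75 ± 0.09, adjusted p = 3.68e-07), but Ψ-IP and flow-through overlapped.

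The second most abundant copy, a MIR3 at chr5:113349080-113349180, overlapped between groups at 564, 492 and 582 CPM in input and 387, 426 and 567 CPM in Ψ-IP (-0.16 ± 0.10, adjusted p = 0.280). The MIRb copy in an exon of the noncoding gene 1700001L05Rik, chr15:83356143-83356369, to which the first sequence above belongs, fell from 552, 496 and 548 CPM to 375, 364 and 402 CPM (-0.41 ± 0.06, adjusted p = 3.85e-05). The MIR3 copy of chromosome 18, chr18:67064046-67064196, was at 263, 264 and 276 CPM in input and 275, 308 and 239 CPM in Ψ-IP and did not pass. Of these 5 most abundant copies, 3 were therefore lower in Ψ-IP and none was higher.

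Copies also rose. A MIR3 copy of chromosome 10, chr10:75857100-75857138, stood at 121, 127 and 135 CPM in input and at 233, 240 and 254 CPM in Ψ-IP, a log2 fold change of 1.00 ± 0.07 (adjusted p = 3.21e-10). A MIRc copy of chromosome 5, chr5:113353445-113353503, lies downstream of the abundant MIR3 copy on the same strand and rose from 476, 476 and 497 CPM to 705, 657 and 660 CPM (0.56 ± 0.06, adjusted p = 7.51e-08). Among the falls, the MIRb copy chr9:67738217-67738354 dropped from 554, 442 and 508 CPM to 150, 114 and 112 CPM (-1.93 ± 0.09, adjusted p = 5.38e-13). An ID4 copy on the same strand of chromosome 9, chr9:67738720-67738798, dropped from 87.1, 77.4 and 89.1 CPM to 27.7, 24.9 and 27.9 CPM (-1.57 ± 0.09, adjusted p = 7.28e-12). These 4 copies were picked after their values were seen, and in each of them the groups did not overlap.

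Inside an intron of Gm21221, neighbouring copies of MIR and MIRb on the same strand moved in opposite directions. The MIR copy chr5:149808173-149808229 was at 199, 149 and 183 CPM in input and 346, 189 and 300 CPM in Ψ-IP (0.73 ± 0.13, adjusted p = 0.000152), where the groups overlapped and DESeq2 made no call. The MIRb copy chr5:149808463-149808516 was at 229, 203 and 258 CPM in input and 71.0, 35.6 and 49.2 CPM in Ψ-IP (-2.07 ± 0.14, adjusted p = 7.08e-11). This pair was likewise chosen after its values were seen.

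**Figure D2:**
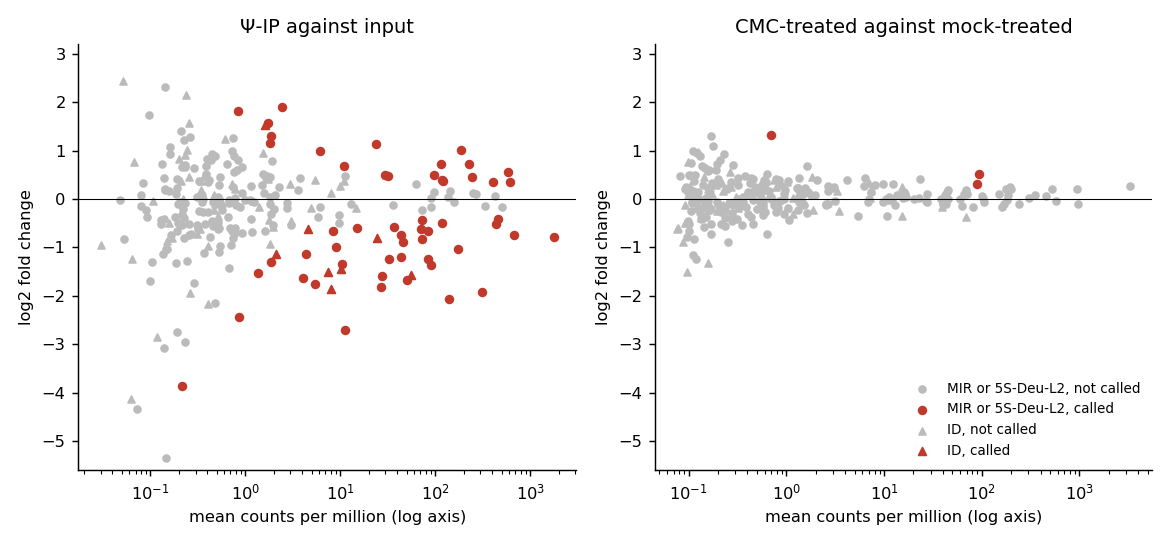
Log2 fold change of each genomic copy against its mean level in the compared groups, in CPM on a log axis, for Ψ-IP against input (275 copies) and CMC-treated against mock-treated (277 copies). Circles are MIR or 5S-Deu-L2 copies, triangles are ID, and red marks an adjusted p-value under 0.01. In Ψ-IP, 41 copies are called lower and 21 higher, while with CMC 3 are called higher.

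The loci with the largest changes in Ψ-IP, among called loci averaging at least 100 counts whose libraries did not overlap between groups, were as follows. A 32-nt MIRb locus, chr15:59274805-59274836, rose from 4.07, 4.28 and 3.23 CPM to 16.1, 10.3 and 11.7 CPM (1.57 ± 0.25, adjusted p = 3.04e-08). A 33-nt MIRb locus in an intron of Cyp19a1, the gene of aromatase, chr9:54226539-54226571, rose by 1.56 ± 0.26, and a 31-nt MIR locus in an exon of 4933404O12Rik, chr5:136935519-136935549, by 1.52 ± 0.23. The last has the 5′ end of the fourth sequence above and is 2 nt longer, and the printed 29-nt form did not pass (0.77 ± 0.27, adjusted p = 0.0212). Among the falls, the 29-nt MIRb locus chr9:67738292-67738320 dropped from 39.6, 29.6 and 40.1 CPM to 2.74, 1.21 and 2.26 CPM (-4.26 ± 0.26). A 30-nt MIRb locus of chromosome 6, chr6:127796994-127797023, fell by 4.05 ± 0.33, and a 30-nt MIR3 locus, chr5:114852562-114852591, by 3.47 ± 0.30. Against flow-through, the chromosome 15 rise passed (0.98 ± 0.30, adjusted p = 0.00891), but was lost in 5 of 11 alternatives. The Cyp19a1 locus (0.84, adjusted p = 0.0347) and the 4933404O12Rik locus (-0.43) did not pass there. The 3 falls passed there (-2.84, -2.43 and -1.58), the last lost in 3 of 11 alternatives. The 3 largest rises against input were thus of 31 to 33 nt and the 3 largest falls of 29 to 30 nt.

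Length was therefore followed along shared 5′ ends. At the 5′ end of the first printed sequence, in 1700001L05Rik, the forms of 29, 30 and 31 nt differ only by bases at the 3′ end.

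MIRb 29 nt, chr15:83356246-83356274, minus strand: Tttcacagatgaggaaactgaagcttagg
MIRb 30 nt, chr15:83356245-83356274, minus strand: Tttcacagatgaggaaactgaagcttaggg
MIRb 31 nt, chr15:83356244-83356274, minus strand: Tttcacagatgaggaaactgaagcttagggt

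The 29-nt form stood at 96.0, 62.9 and 96.6 CPM in input and 35.1, 16.2 and 20.3 CPM in Ψ-IP, a log2 fold change of -1.99 ± 0.21. The 30-nt form stood at 73.6, 67.3 and 72.1 CPM and at 36.7, 31.01 and 31.3 CPM (-1.25 ± 0.21). The 31-nt form stood at 32.5, 30.7 and 32.6 CPM and at 27.9, 21.7 and 25.6 CPM (-0.49 ± 0.21, adjusted p = 0.0734) and did not pass. From 29 to 31 nt the fall was thus smaller in the longer form, and the 28-nt form, at -2.28, continued this order. The forms of 27 nt (-1.70) and 26 nt (-1.88) had smaller falls than those of 28 and 29 nt, while those of 22 to 25 nt had log2 fold changes of -5.02, -3.18, -3.45 and -2.26, and all of these passed. Against flow-through, none of the 3 printed forms passed, with log2 fold changes of 0.16, -0.19 and 0.05.

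At the main 5′ end of the chromosome 6 MIRc copy, the log2 fold change was -1.87 at 26 nt, -3.21 at 27 nt, -2.996 at 28 nt, -2.33 at 29 nt, -1.49 at 30 nt, -0.71 at 31 nt and -0.37 at 32 nt, and all but the 32-nt form passed. The fall was thus smaller with each added nucleotide from 27 nt on, and the 26-nt form lay outside this order. At that of the chromosome 5 MIR3 copy it was -1.90 at 26 nt, -1.92 at 27 nt, -2.14 at 28 nt, -1.79 at 29 nt, -1.20 at 30 nt and 0.59 at 31 nt, where it did not pass (adjusted p = 0.0136). The MIRb copy of chromosome 6 had another order above 29 nt, with -3.35 at 26 nt, -2.28 at 27 nt, -1.58 at 28 nt, -0.79 at 29 nt, -0.59 at 30 nt and -1.56 at 31 nt. Over all tested loci described here, a form 1 nt longer at the 3′ end had the higher log2 fold change in 56.2% of 2764 steps, with a median step of 0.14. Over all 395416 such steps in the data the share was 56.4% and the median step 0.15. Against flow-through the share was 50.3% in both sets, with median steps of 0.011 and 0.0080, so this order was not seen there. After CMC the share was 46.7% of 2086 steps, beside 46.5% of all steps, with a median step of -0.03 in both. The difference between these loci and the rest was not tested. By length, the median log2 fold change against input was -0.52 at 29 nt, -0.34 at 30 nt and -0.19 at 31 nt, beside -0.14, -0.07 and 0.03 over all loci of those lengths.

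**Figure D3:**
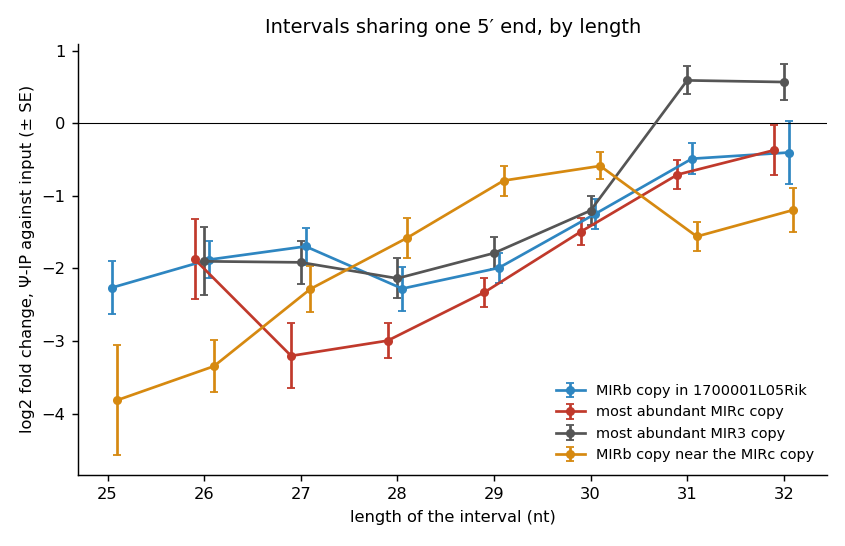
Log2 fold change in Ψ-IP against input, with its SE, for loci of 25 to 32 nt that share the main 5′ end of each of the 4 most abundant genomic copies. In the MIRc copy, the MIR3 copy and the MIRb copy of 1700001L05Rik the values rise between 29 and 31 nt, and in the MIRb copy of chromosome 6 the 31-nt form is lower than the 30-nt form.

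All libraries had their most frequent length among these loci at 30 nt. Lengths of 29 to 31 nt held 73.8% ± 0.305 of the counts in input, 73.3% ± 1.20 in Ψ-IP and 71.7% ± 0.645 in flow-through (SD, n = 3). Ψ-IP differed from input by -0.54 percentage points (exact permutation p = 0.4) and from flow-through by 1.56 points, where the groups did not overlap and p reached its minimum of 0.1 (0.48 adjusted over 6 tests of length shares). For MIR alone the latter difference was 1.16 points and the groups overlapped (exact permutation p = 0.2). Leaving out 1 library moved this MIR difference to between 0.479 and 1.52 points. For all of these loci, the difference from input was -0.23 without Ψ-IP replicate 1, -0.16 without Ψ-IP replicate 2 and -1.23 without Ψ-IP replicate 3. That from flow-through was 0.862 without Ψ-IP replicate 3. Without the 3 most abundant loci the difference from input turned to 1.48 points (exact permutation p = 0.1).

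Of the tested loci with a known sequence, the 33 that were higher in Ψ-IP than in input came from 9 copies and all began with T, beside 88.9% of the 180 lower ones and 82.5% of the 731 others. Their median T content was 35.5%, 31.03% and 29.03%, respectively. These shares describe a few copies in exons and were not tested.

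The second comparison sets Ψ-IP against flow-through, the RNA that did not bind. It shares the Ψ-IP libraries with the first, so the values are given side by side and not as a second piece of evidence. MIR differed by -0.30 ± 0.04 (adjusted p = 2.94e-05), ID by -0.75 ± 0.09 (adjusted p = 1.19e-05) and 5S-Deu-L2 by -2.88 ± 0.20 (adjusted p = 3.23e-08). Here the other SINE families were lower as well, by 0.56 for Alu, 0.41 for B2 and 0.17 for B4, and 58.6% of all repeat families changed. Of the repeat names, AmnSINE1, ID, ID4, MIRb and MIRc were lower, and 44.7% of all repeat names changed. Without its most abundant copy the MIR family no longer passed (-0.06, adjusted p = 0.206), MIRb and ID4 did not either (-0.05 and -0.05), and MIRc turned to 0.14 (adjusted p = 0.0340).

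The log2 ratio of MIR to Alu was 0.90, 1.12 and 1.16 in flow-through and thus lower than in all 3 Ψ-IP libraries, the opposite order to that against input. Against B4 the ratio was lower in Ψ-IP, by 0.13, and the exact permutation p was 0.1 for both. The ratio to B2 overlapped between the groups, with a difference of 0.11 (exact permutation p = 0.2). The B4 difference was -0.084 without Ψ-IP replicate 2, and the B2 difference was 0.074 without Ψ-IP replicate 3 and 0.060 without flow-through replicate 1.

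Of the single loci, 333 (7.19%) were higher in Ψ-IP than in flow-through and 226 (4.88%) were lower, against 9.30% and 3.56% of all loci. The lower calls included 12 of the 28 tested AmnSINE1 loci. Of the copies, 25 (9.09%) were higher and 32 (11.6%) lower, against 10.5% and 8.05% of all copies. The 5S-Deu-L2 counts came almost wholly (99.8%) from 1 copy, an AmnSINE1 at chr14:24096118-24096176, and its most abundant locus, of 25 nt, stood at 0.958, 1.15 and 1.75 CPM in input, 0.428, 0.518 and 0.460 CPM in Ψ-IP and 17.4, 12.1 and 9.58 CPM in flow-through. The log2 difference between Ψ-IP and flow-through at this locus was -4.52 ± 0.41.

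Of the Gm21221 pair, the MIR copy stood at 29.9, 37.1 and 46.1 CPM in flow-through, below all input and Ψ-IP libraries (3.07 ± 0.17 for Ψ-IP against flow-through, adjusted p = 5.33e-12), and the MIRb copy at 129, 141 and 171 CPM, above all Ψ-IP libraries (-1.33 ± 0.16, adjusted p = 5.59e-07). The MIRc copy chr5:113353445-113353503 was at 149, 240 and 235 CPM (1.88 ± 0.12), and a MIRc copy in an untranslated exon part of Tbl2, chr5:135160295-135160388, at 483, 429 and 484 CPM, beside 125, 92.9 and 112 CPM in Ψ-IP (-1.90 ± 0.10). The Tbl2 copy was also picked after its values were seen. The second printed sequence, of D130017N08Rik, stood at 25.3, 21.1 and 30.6 CPM in input, 64.0, 55.4 and 61.2 CPM in Ψ-IP and 5.30, 7.499 and 8.04 CPM in flow-through. Its Ψ-IP level was above input (1.09 ± 0.21, adjusted p = 4.88e-06) and above flow-through (3.37 ± 0.29, adjusted p = 1.13e-28). The third, of 1700029M20Rik, was below both (-1.69 ± 0.20 and -1.33 ± 0.25).

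The third comparison, CMC-treated against mock-treated, asks which piRNAs are depleted when CMC stops reverse transcription at Ψ. The MIR family differed by 0.17 on the log2 scale (adjusted p = 0.0398) and did not pass, and ID differed by -0.11 (adjusted p = 0.147). With the replicate number as a block, MIR passed as higher (0.17, adjusted p = 0.000392). That pairing of libraries was inferred from the data and is not given by the labels. In the fit without the block, 7.14% of all repeat families and 6.14% of all repeat names changed, but none of the names described here. MIRc came nearest, at 4363, 4178 and 3878 CPM after mock treatment and 5108, 5296 and 4600 CPM after CMC (0.25 ± 0.05, adjusted p = 0.0110). ID2 was next, at 91.1, 97.4 and 105 CPM and then 83.5, 67.3 and 84.6 CPM (-0.33 ± 0.09, adjusted p = 0.0281). In both the groups did not overlap, and both passed with the block, MIRc as higher (adjusted p = 0.000166) and ID2 as lower (adjusted p = 0.00454). With the block, 5 of all 28 repeat families (17.9%) and 52 of all 472 repeat names changed.

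Of the 3965 loci tested, 75 (1.89%) were higher after CMC and none was lower by edgeR, against 1.07% and 0.654% of all 556583 loci. By DESeq2, which gave no adjusted p-value for 1131 of the 3965, 54 were higher and 0 lower. No share over all loci is given for that fit. At an unadjusted p under 0.05, 353 (8.90%) were higher and 134 (3.38%) lower, against 7.10% and 6.94% of all loci. All 75 were MIR loci, 34 of MIRc, 22 of MIRb, 17 of MIR3 and 2 of the name MIR, and no ID locus was called. The 75 came from 16 copies and 23 of them from the chromosome 6 MIRc copy. Without mock-treated replicate 2, 48 were higher. Without CMC-treated replicate 1, 2 or 3, respectively 7, 1 and 4 loci were lower. With the block, 87 were higher and 2 lower, where 1.24% and 1.03% of all loci were called, the 2 lower being the 30-nt ID2 locus chr17:66223106-66223135 (-0.48, adjusted p = 0.00515) and the MIRb locus chr9:67738227-67738254 (-0.46, adjusted p = 0.00936).

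Summed over copies, the changes were small. Of 277 copies tested, 3 (1.08%) were higher and 0 lower, against 0.370% and 0.945% of all copies, and the calls rose to 7 and 2 with the block, where 0.983% and 1.83% of all copies were called. Without mock-treated replicate 2, mock-treated replicate 3 or CMC-treated replicate 2, no copy was called higher. Without CMC-treated replicate 3, 5 copies were higher and 1 lower, and without CMC-treated replicate 1, 3 were higher and 2 lower. The chromosome 6 MIRc copy stood at 3100, 2972 and 2690 CPM after mock treatment and 3746, 3921 and 3269 CPM after CMC, and did not pass without the block (0.28 ± 0.06, adjusted p = 0.0217) but did with it (adjusted p = 3.36e-05). One of the called copies, a MIRc at chr2:92559619-92559745, rose from 84.9, 76.6 and 67.2 CPM to 108, 130 and 97.3 CPM (0.51 ± 0.09, adjusted p = 0.00404), a call lost without mock-treated replicate 2, mock-treated replicate 3 or CMC-treated replicate 2. This copy was picked after its values were seen.

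No locus of these families was called both higher in Ψ-IP than in input and lower after CMC, the pair of signs by which the study looked for Ψ. Summed by 5′ end, 1 of 1156 (0.0865%) met both criteria, against 0.490% of all 178285 5′ ends tested in both. Of 2293 loci tested in both experiments, 129 were higher in Ψ-IP and 0 lower after CMC, whereas over all 293568 loci tested in both 875 (0.298%) met both criteria. In the opposite pattern, 22 (0.959%) were lower in Ψ-IP and higher after CMC, and 1 (0.0436%) was higher in both, against 0.190% and 0.0361% of all loci tested in both. The 129 loci higher in Ψ-IP than in input had a median log2 fold change of -0.14 after CMC, and 87 of them (67.4%) were below 0. Over all 2293 loci tested in both experiments the median was 0.08 and 41.1% were below 0. For the whole data, the 23101 loci higher in Ψ-IP had a median of -0.11 with 59.97% below 0, and all loci tested in both had a median of 0.01 with 48.6% below 0. The 30-nt ID2 locus of chromosome 17, the most abundant ID locus, passed neither criterion without the block. It stood at 1.88, 1.45 and 1.64 CPM in input, 2.31, 5.36 and 2.92 CPM in Ψ-IP and 0.651, 1.13 and 1.26 CPM in flow-through. Ψ-IP was above flow-through (2.06 ± 0.43, adjusted p = 3.36e-05, lost without Ψ-IP replicate 2), did not pass against input (0.93 ± 0.32, adjusted p = 0.0174), and after CMC the level moved from 31.98, 36.4 and 40.96 CPM to 29.7, 23.5 and 29.04 CPM (-0.47 ± 0.13, adjusted p = 0.0254). The other ID loci among the 3 most abundant, both ID4, were lower in Ψ-IP than in input. They were chr18:67037997-67038025 (-1.08 ± 0.26, adjusted p = 0.000436) and chr9:67738754-67738783 (-2.90 ± 0.26, adjusted p = 1.68e-24). After CMC neither passed (-0.27 and -0.10).

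The 2 largest rises after CMC, among called loci averaging at least 100 counts whose libraries did not overlap between groups, lay at the most abundant locus of these families, the 30-nt MIRc locus chr6:127800672-127800701. The piRNA itself stood at 1252, 1214 and 1034 CPM after mock treatment and 1469, 1595 and 1206 CPM after CMC and did not pass (0.22 ± 0.11, adjusted p = 0.339). The locus with the same 3′ end that starts 1 nt later stood at 1.71, 0.925 and 0.649 CPM and rose to 7.85, 9.11 and 6.99 CPM (2.83 ± 0.20, adjusted p = 2.46e-14). The one that starts 2 nt later rose from 0.281, 0.377 and 0.324 CPM to 7.01, 7.37 and 6.47 CPM (4.30 ± 0.21, adjusted p = 5.11e-20). Those that start 3 and 4 nt later, with fewer counts than that minimum, rose by 2.50 ± 0.43 and 4.41 ± 0.37. Forms that lacked 1 to 4 nt at the 5′ end were thus higher after CMC, while all stayed far below the full piRNA in level.

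**Figure D4:**
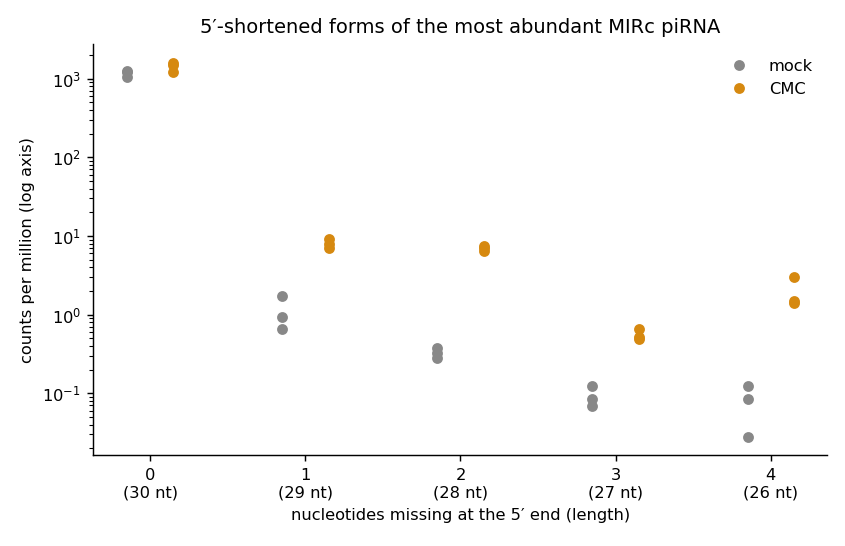
Level of the 30-nt MIRc piRNA of chromosome 6 and of loci with the same 3′ end that lack 1 to 4 nt at the 5′ end, in CPM on a log axis, with 1 point per mock-treated or CMC-treated library. The groups overlap for the full form and are separate for each shortened form.

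The same loci fell in Ψ-IP against input, by 1.75 for the form that lacks 1 nt, by 2.05 for 2 nt and by 1.49 for the full form. The 2-nt form was not called by DESeq2 against input. Against flow-through it was called higher in Ψ-IP (1.91 ± 0.56, adjusted p = 0.00588), a call lost in 8 of 11 alternatives. There the 1-nt form (-0.02) and the full form (-0.47) did not pass. The third of the largest rises after CMC under that minimum of 100 counts was a 27-nt MIR3 locus, chr18:67064084-67064110, which went from 8.59, 8.68 and 9.24 CPM to 25.7, 29.5 and 30.4 CPM (1.62 ± 0.13, adjusted p = 7.94e-13). It begins at the main 5′ end of its copy and is short at the 3′ end. The 27-nt form at the main 5′ end of the chromosome 6 MIRc likewise rose, from 89.9, 87.4 and 71.6 CPM to 178, 209 and 176 CPM (1.11 ± 0.11, adjusted p = 2.01e-09).

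To describe 5′-shortened forms in other copies as well, each tested locus was placed by its 5′ end relative to the most abundant tested locus with the same 3′ end. After CMC, 23 of 264 loci (8.71%) that lacked 1 nt were called higher, 13 of 273 (4.76%) that lacked 2 nt and 10 of 220 (4.55%) that lacked 3 nt, but 13 of 876 (1.48%) that were themselves the most abundant. Their median log2 fold changes were 0.39, 0.30, 0.20 and 0.01. Without the chromosome 6 MIRc copy, 16 of 240 (6.67%), 8 of 247 (3.24%), 8 of 201 (3.98%) and 11 of 830 (1.33%) were called higher, with medians of 0.38, 0.26, 0.16 and -0.01. Over all loci the shares were 4.17%, 4.08%, 2.70% and 0.849%, with medians of 0.19, 0.16, 0.10 and -0.04. Of loci that lacked 4 nt, 6 of 91 (6.59%) were called higher, and 3 of 86 (3.49%) without that copy, beside 2.15% over all loci. Loci that begin 1 nt upstream of the most abundant one had a median of 0.03, and none of 224 was called, beside a median of -0.08 and 0.246% called higher over all loci. Of those that begin 2 and 3 nt upstream, 1 of 199 (0.503%) and 2 of 120 (1.67%) were called higher, beside 0.270% and 0.224% over all loci. In Ψ-IP against input the median was -0.70 for loci that lacked 1 nt and -0.31 for the most abundant, beside -0.20 and -0.01 over all loci. It was -0.26 for those that lacked 4 nt (-0.34 over all loci). Against flow-through the medians were -0.23, -0.08 and 0.24 for 1, 2 and 3 nt, beside -0.22 for the most abundant. Over all loci these were 0.14, 0.15, 0.10 and 0.04, so shortened forms were not generally lower than the most abundant there. This arrangement was set up after the values of the chromosome 6 locus were seen, and the difference between these loci and the rest was not tested.

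**Figure D5:**
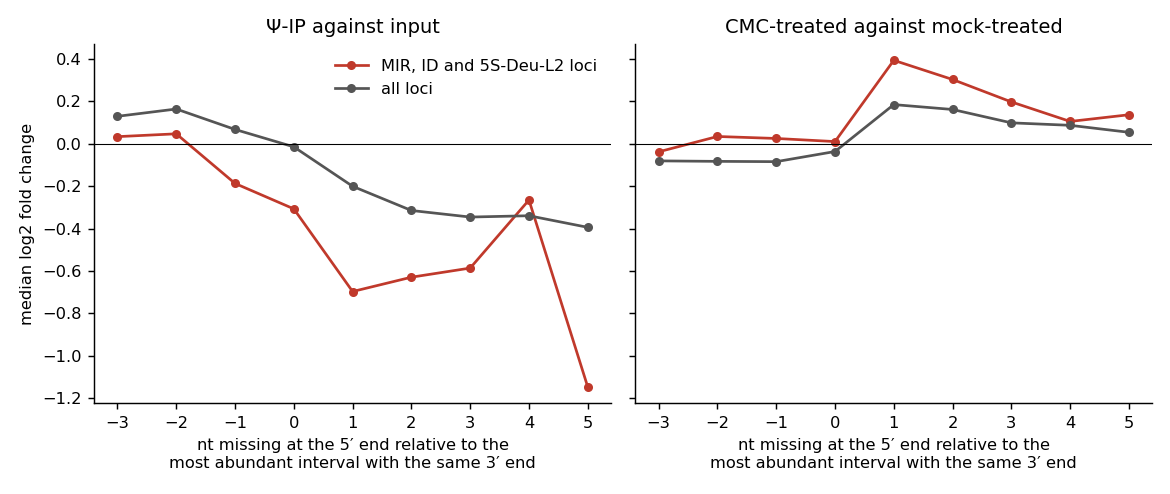
Median log2 fold change of tested loci by the number of nucleotides missing at the 5′ end, relative to the most abundant tested locus with the same 3′ end (0 marks that locus and negative values mark longer forms). After CMC the median is highest for loci that lack 1 nt, 0.39 in the MIR, ID and 5S-Deu-L2 loci and 0.19 in all loci. In Ψ-IP against input the loci of these families that lack 1 to 3 nt lie below the most abundant form. Those that lack 4 nt lie slightly above it, and flow-through is not plotted.

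By length, the median log2 fold change after CMC fell from 0.13 at 28 nt to 0.02 at 31 nt, beside 0.07 and -0.07 over all loci. Lengths of 29 to 31 nt held 65.2% ± 1.69 of the counts after mock treatment and 63.6% ± 2.37 after CMC (SD, n = 3), and the groups overlapped (exact permutation p = 0.5). Between libraries of the same number the differences were -1.41, -1.05 and -2.48 percentage points. The mean difference was -1.65 points, and -0.281 without CMC-treated replicate 3, -0.982 without mock-treated replicate 1 and -2.60 without mock-treated replicate 3. The log2 ratio of MIR to B4 was 1.60, 1.53 and 1.503 after mock treatment and 1.76, 1.72 and 1.62 after CMC without overlap (exact permutation p = 0.1). The ratios to Alu and B2 overlapped between the groups, but were higher after CMC in all 3 same-numbered pairs, by 0.038, 0.12 and 0.025 for Alu and by 0.16, 0.20 and 0.10 for B2. The mean Alu difference of 0.059 became 0.12 and 0.11 when CMC-treated replicate 3 or mock-treated replicate 1 was left out, and 0.015, 0.023 and 0.034 when mock-treated replicate 3, CMC-treated replicate 1 or CMC-treated replicate 2 was. With 3 pairs an exact two-sided sign-flip permutation test cannot give a p below 0.25, the value reached by the share at 29 to 31 nt and by all 3 ratios.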

How the data were processed

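Each deposited file holds, for 1 library, unnormalised read counts at stranded mm10 intervals, which the authors made from reads clipped with Cutadapt, aligned with Bowtie2 and intersected with repeats and piRNA clusters by bedtools; how reads with several alignments were counted is not given in the sources used here. A read that fits several copies of an old repeat could therefore be placed at any or all of them. Identifiers shorten some repeat names, and the element named ID under the B4 family stayed with B4.

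Groups came from the labels. Loci with more than 20 counts over 9 (immunoprecipitation) or 6 (CMC) libraries were tested with edgeR 4.0.16 in R 4.3.3 (TMM, quasi-likelihood test, Benjamini-Hochberg adjustment over all loci, threshold 0.01); the SE is the log2 fold change divided by the root of F. Family, name and genomic copy sums were tested the same way, families and names with an average of at least 10 counts. DESeq2 1.42.0 and other settings served as alternatives, and scripts were tested on simulated data. CPM is the count scaled to a common library total. Gene positions came from GENCODE M21, and coordinates count from 1. Named loci were drawn from the 3 most abundant of each family and the 3 largest called rises and falls averaging at least 100 counts. Named copies were the 5 most abundant, beside those said to be chosen later. The members and lists were chosen with earlier results of these data known.

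Over loci averaging more than 50 counts, same-numbered CMC-treated and mock-treated libraries deviated together (correlations of 0.12, 0.14 and 0.28), so the number was taken as a pairing there. This rests on the data only: in each comparison 4 of 6 libraries correlated best with their own number, and CMC-treated replicate 2 correlated more with mock-treated replicate 1 (0.22) than with its own number. Totals ran from 11575705 to 58399368 counts. No source says that molecular identifiers were counted, so counts may not be independent molecules. Replicates differed by more than counting noise, with chi-square per degree of freedom of 1.77 to 5.74 between libraries of a group, over loci with at least 10 counts in the pair.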

Additional observations from a re-analysis of the deposited data

How the results depend on the processing

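Of 774 recomputed values for 67 results, 670 kept their direction and their side of the threshold or stayed near the value reported. The counts in this paragraph carry no share over all loci under the same setting, and show only how the calls vary. The number of higher loci in Ψ-IP against input was 117 by DESeq2, 118 summed by 5′ end and 75 with no minimum count. That of lower loci was 497 by DESeq2, 346 by 5′ end and 469 with an average of at least 10 counts. In this comparison DESeq2 gave no adjusted p-value for 2031 of the loci tested by edgeR. Leaving out 1 library gave 82 to 217 higher and 464 to 724 lower loci and 13 to 20 higher copies. Against flow-through, 155 were higher and 129 lower by 5′ end, and 142 lower with no minimum. After CMC, 41 were higher and 2 lower by 5′ end, and 1 met both criteria by 5′ end. Leaving out 1 library gave 48 to 74 higher and 0 to 7 lower loci, 0 to 5 higher and 0 to 2 lower copies, and 0 to 1 changed names. Lower copies numbered 1 by DESeq2. With the replicate block, 7 copies were higher and 2 lower after CMC, 2 loci were lower and 2 repeat names changed, and the MIR family passed (0.17). MIR also passed by DESeq2 (0.17) and with no minimum (0.20), where 2 names changed, as without the 3 most abundant loci of each name. Against input and flow-through the replicate number did not pair the libraries (correlations of -0.03 and -0.05 for replicate 3). There the block gave 164 and 284 higher and 659 and 196 lower loci, ended no family's call and added the name MIR against input (-0.17, adjusted p = 0.00799).

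Without the 3 most abundant loci, the log2 ratio of MIR in Ψ-IP against input was -0.11 to Alu, -0.080 to B2 and -0.14 to B4, and against flow-through 0.20 to B2 and -0.044 to B4. The share at 29 to 31 nt then differed by 1.48 points from input (1.45 for MIR) and by 3.50 from flow-through (3.13 for MIR). Without the most abundant copy of each family or name, MIR against flow-through was -0.061, ID after CMC 0.0034, 2 names changed against flow-through and 1 after CMC, the name MIR1 against input was 0.61, ID -0.26, MIRc against flow-through 0.14, ID2 -0.078, and after CMC MIR1 was -0.058 and ID4 -0.032. The cause of these shifts was not tested. Names that did not pass turned sign in Ψ-IP against input, MIR3 under size factors and by DESeq2 (-0.011 in both), ID likewise (-0.00039 and -0.0011) and AmnSINE1 without its 3 most abundant loci (0.15, and 0.092 for its family), as did MIR1 after CMC without its 3 most abundant loci (-0.011). Leaving out 1 library gave ranges that cross 0 against input for MIR3 (-0.028 to 0.054), ID (-0.049 to 0.083), AmnSINE1 (-0.30 to 0.014) and its family (-0.31 to 0.0074), against flow-through for MIR (-0.011 to 0.11) and MIR1 (-0.066 to 0.22), and after CMC for MIR1 (-0.075 to 0.089), MIR3 (-0.0020 to 0.091) and ID4 (-0.0046 to 0.044). Depth limits the tRNA and tRNA-RTE families, which had too few counts for any test.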

Other observations

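The pair of elements with the fewest counts gave no usable signal. LFSINE, of the tRNA family, had 2 copies and MamSINE1, of the tRNA-RTE family, had 1. LFSINE stood between 0 and 0.259 CPM and MamSINE1 between 0 and 0.216 CPM over the 15 libraries.

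On chromosome 2, 1 MIRc copy, chr2:92560061-92560177, stood at 141, 127 and 148 CPM in input, 139, 111 and 155 CPM in Ψ-IP and 321, 265 and 263 CPM in flow-through (-0.88 ± 0.11 for Ψ-IP against flow-through by edgeR, adjusted p = 1.09e-06). A MIR3 copy of chromosome 10, chr10:75855912-75855985, was above input in Ψ-IP (0.46 ± 0.08) and below flow-through (-0.61 ± 0.10). A MIRc copy in an intron of Gm49793, chr17:27314570-27314694, was above both, at 407, 485 and 438 CPM in Ψ-IP, 380, 347 and 376 CPM in input and 209, 283 and 277 CPM in flow-through. The log2 fold changes were 0.35 ± 0.07 (adjusted p = 0.000511) and 0.97 ± 0.10 (adjusted p = 1.61e-07) by edgeR. Of its 169 loci tested singly against input, 11 were higher and 34 lower, with a median of -0.06, where 5.45% and 10.7% of all loci were called. These copies were chosen after their values were seen.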
